A study of Mus musculus with 6 samples.

Results

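Paneth cells are secretory cells at the base of the crypts of the small intestine. They release antimicrobial proteins from large granules, and they signal to the *Lgr5*-expressing stem cells that lie between them. Their best known products are the alpha-defensins, small peptides that damage bacterial membranes, and lysozyme, which cuts the bacterial cell wall. This account covers 10 genes that mark Paneth cells, chosen by symbol out of the 56884 genes in the count tables. They are *Lyz1*, *Mmp7*, *Ang4*, *Itln1*, *Mptx2*, *Pla2g2a* and the alpha-defensin genes *Defa17*, *Defa22*, *Defa24* and *Defa30*. All 10 had enough counts to be tested in every comparison.

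The RNA came from organoids of mouse small intestine, cultures of the intestinal epithelium that form crypt-like buds. Every library, control or treated, was from animals with Ythdf2 fl/fl that also carried Villin-CreERT2 and Lgr5-EGFP-IRES-CreERT2. CreERT2 is a Cre recombinase fused to a receptor domain, and 4-hydroxytamoxifen (4-OHT) switches it on. The villin promoter is active throughout the intestinal epithelium, so the recombinase is not limited to stem cells, and the *Lgr5* allele adds a second source of it in stem cells. *Ythdf2* encodes a reader of N6-methyladenosine in RNA, and its floxed allele is the target of the recombinase. Lgr5-GFP-positive cells were collected by sorting, either 6 or 4 days after 0.5 µM 4-OHT or ethanol (EtOH), the vehicle. The data held 2 EtOH and 2 4-OHT libraries at day 6, and 1 EtOH and 1 4-OHT library at day 4. The labels do not say whether the replicates were separate cultures, so the p-values measure only the spread between these libraries, which may be technical. The sort selects stem cells and not Paneth cells, so the Paneth cell genes are described here as transcripts found within a sorted population. In such bulk libraries, fewer cells of a type and less RNA per cell cannot be told apart.

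The libraries held 14345379 to 21461835 gene counts, and Paneth cell genes made up a small part of each. Levels are given in CPM (gene counts scaled to a common library size), with TMM (trimmed mean of M values) factors. *Lgr5*, the marker used for the sort, was present at 209 to 368 CPM in all 6 libraries. *Ythdf2* went against its label: the EtOH libraries of day 6 had 82.7 and 76.0 CPM, and those labelled 4-OHT had 208 and 204 CPM. At day 4 it was at 76.1 CPM in the EtOH library and 167 CPM in the library labelled 4-OHT. The day 6 difference was 1.37 on the log2 scale (SE 0.16, Benjamini-Hochberg adjusted p = 0.0018, edgeR quasi-likelihood). Counts per gene do not show which exons were read, so each direction below is that of the libraries as labelled. The library names at day 4 belong to another number series than those at day 6, and day and that difference cannot be told apart.

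The alpha-defensin genes lie in a cluster of near-identical copies on chromosome 8, and the sequences of the 4 named here show why their counts carry a limit. The following lines give the coding part of the last coding exon of each gene, which encodes the C-terminal end of the peptide (GRCm39, plus strand, 5′ to 3′). Capitals mark the 42 of 107 positions at which the 4 genes are not all the same.

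Defa17 (chr8:22146548-22146654): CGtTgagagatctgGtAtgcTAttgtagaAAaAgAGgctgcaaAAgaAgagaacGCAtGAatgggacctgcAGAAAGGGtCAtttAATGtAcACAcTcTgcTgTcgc
Defa22 (chr8:21653062-21653168): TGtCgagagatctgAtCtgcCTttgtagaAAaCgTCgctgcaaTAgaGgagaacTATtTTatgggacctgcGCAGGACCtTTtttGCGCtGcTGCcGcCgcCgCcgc
Defa24 (chr8:22225284-22225390): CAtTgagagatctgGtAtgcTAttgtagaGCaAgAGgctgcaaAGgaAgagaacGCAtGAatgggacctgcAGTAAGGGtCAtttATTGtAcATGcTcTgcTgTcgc
Defa30 (chr8:21625410-21625516): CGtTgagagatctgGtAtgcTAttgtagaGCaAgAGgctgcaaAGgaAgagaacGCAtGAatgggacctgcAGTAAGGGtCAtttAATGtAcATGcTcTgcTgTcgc

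*Defa24* and *Defa30* shared 275 of the 279 coding bases (98.6%), and *Defa17* shared 97.1% with *Defa30* and 95.7% with *Defa24*. *Defa22* was the most distant of the 4, at 79.2% to 81.7% identity with the others. A read that maps to several places enters no gene in these tables, so the shared stretches lower the counts. Of all windows of 100 bases in the annotated transcripts of *Defa17*, 75.4% also occurred in another gene. The share was 31.2% for *Defa22*, 0.822% for *Defa30*, 0.276% for *Defa24*, 1.64% for *Lyz1*, 3.31% for *Mptx2* and 0 for the other 4 genes. The count of *Defa17* is therefore a lower limit, and its rank among the defensins is uncertain. Some 18.6% of the exon bases of *Defa30* overlap *Defa-ps4*. A sum over every annotated gene with a Defa symbol, 45 in all, is given beside the single genes. It too lacks the reads that map to several places, so it is also a lower limit.

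The region just before the start of 2 of these defensin genes shows a sequence feature that Paneth cell genes are known for. Wnt signalling acts through TCF and LEF factors, whose sites often hold the letters CTTTGAT, and it is known to drive Paneth cell maturation. The RefSeq promoter table (GRCm38.p6) held 7 of the 10 genes, lacking an entry for *Defa17*, *Defa24* and *Pla2g2a*. The lines below give the 250 bases before the start of *Defa22* and *Defa30*, with matches to that motif (CTTTGAT, or ATCAAAG when read from the other strand) in capitals.

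Defa22 (chr8:21162027-21162276, plus strand): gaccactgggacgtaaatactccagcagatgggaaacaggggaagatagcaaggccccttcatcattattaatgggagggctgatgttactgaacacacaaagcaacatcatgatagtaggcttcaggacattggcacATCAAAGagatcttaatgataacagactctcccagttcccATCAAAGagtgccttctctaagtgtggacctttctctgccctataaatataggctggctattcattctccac
Defa30 (chr8:21134400-21134649, plus strand): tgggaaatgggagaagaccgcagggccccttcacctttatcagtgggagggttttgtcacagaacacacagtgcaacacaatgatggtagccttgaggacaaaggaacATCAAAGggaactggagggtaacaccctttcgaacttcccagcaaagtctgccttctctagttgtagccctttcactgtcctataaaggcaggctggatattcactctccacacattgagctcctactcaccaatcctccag

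The motif stood 112 and 72 bases before the start of *Defa22* and 142 bases before that of *Defa30*. It also stood 247 bases before the second listed start of *Mmp7*. That match lies after the first listed start of *Mmp7*, whose own window held none. The motif was not in this window of *Lyz1*, *Ang4*, *Itln1* or *Mptx2*. Among all 32851 promoters of the table, 1053 (3.21%) held the motif on either strand. A match is a description of letters and not a measured binding site.

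Per kilobase of annotated exon, *Defa24* had the highest mean level over the 6 libraries, 1560 CPM per kb. *Lyz1* (606), *Defa17* (528), *Itln1* (381) and *Defa30* (228) followed on the same scale. *Ang4* (52.9), *Defa22* (41.2), *Mmp7* (32.1), *Pla2g2a* (11.2) and *Mptx2* (5.23) were lower. Most neighbours in this order kept it in all 6 libraries. The exceptions were *Lyz1* above *Defa17* in 2 of 6, *Ang4* above *Defa22* in 3 of 6 and *Defa22* above *Mmp7* in 4 of 6. Together the 10 genes took 0.297% and 0.212% of the gene counts with EtOH at day 6, and 0.532% and 0.206% with the 4-OHT label. At day 4 they took 0.0415% with EtOH and 0.178% with the 4-OHT label. The day 4 EtOH library thus stood apart at the low end and the first day 6 4-OHT library at the high end.

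Those extremes were the same for every gene. All 10 had their lowest level in the day 4 EtOH library, as had 16.6% of all genes tested, and their highest in the first day 6 library labelled 4-OHT, as had 14.6%. Both held at once for 5.18% of all genes. All 10 were also higher in replicate 1 than in replicate 2 under both labels at day 6, against 27.2% of all genes. Across the 6 libraries, the log2 levels of the 45 pairs of these genes had Pearson correlations of 0.752 to 0.999 with a median of 0.953. These points share treatment, day and library, so the correlations are a description only.

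**Figure D1:**
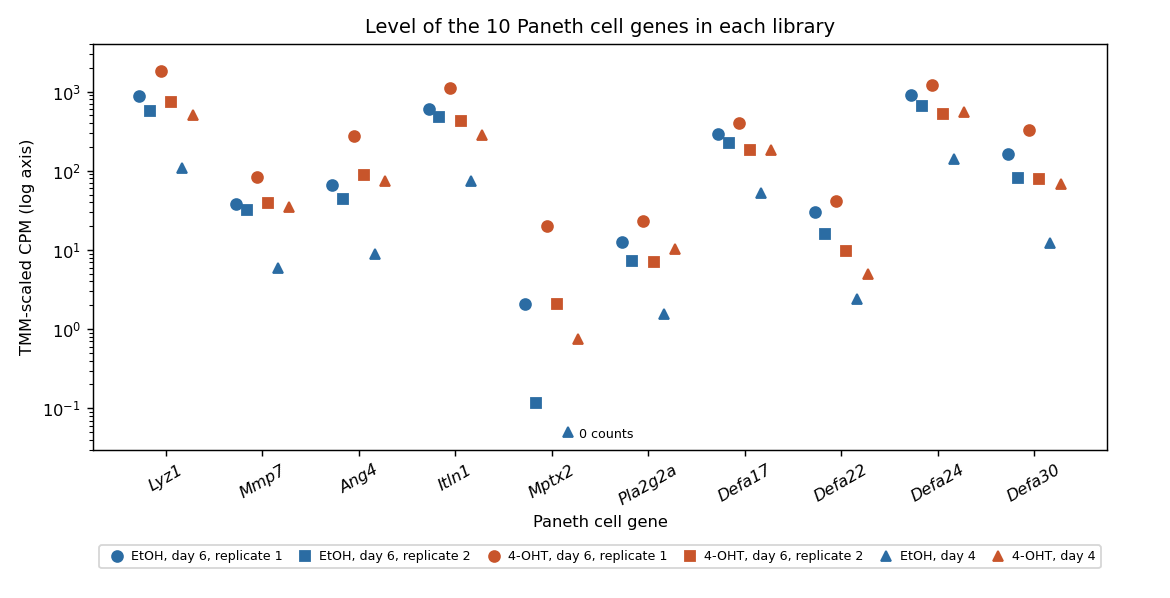
TMM-scaled CPM (log axis) of each of the 10 Paneth cell genes in each of the 6 libraries, with colour for the label and shape for the day and replicate. In every gene the day 4 EtOH library is lowest and the first day 6 4-OHT library is highest, as with *Lyz1* at 110 and 1820 CPM.

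Among the enzymes that act on bacteria, *Lyz1* encodes the Paneth cell lysozyme (chr10:117123698-117128775, minus strand, GRCm39). It was at 880 and 562 CPM (EtOH) and 1820 and 745 CPM (4-OHT) at day 6, and at 110 (EtOH) and 511 CPM (4-OHT) at day 4. Its second 4-OHT library at day 6 lay between the EtOH libraries, so the labels overlapped. The day 6 log2 fold change was 0.83 (SE 0.36, Benjamini-Hochberg adjusted p = 0.466, edgeR quasi-likelihood). *Lyz2*, the lysozyme gene of macrophages and other myeloid cells, had at most 5 counts in any library. *Pla2g2a* encodes a secreted phospholipase that attacks bacterial membranes (chr4:138559171-138562497, plus strand). Its levels were 12.5 and 7.19 CPM (EtOH) and 23.3 and 6.96 CPM (4-OHT) at day 6, and 1.54 and 10.3 CPM at day 4. Here the second 4-OHT library was below both EtOH libraries of day 6.

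*Ang4* encodes a secreted ribonuclease of the angiogenin family that kills microbes (chr14:51990721-52011053, minus strand). It had 66.9 and 44.2 CPM (EtOH) and 279 and 87.5 CPM (4-OHT) at day 6, and 8.88 (EtOH) and 74.0 CPM (4-OHT) at day 4. All 3 libraries labelled 4-OHT were above all 3 EtOH libraries. *Ang4* was the 1 gene of the 10 with this order, which 11.1% of all genes had in the higher direction. Some 14% of its annotated exon bases overlap *Ear-ps3* or *Gm63604*, and reads that overlap several genes are in no gene's count.

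*Mmp7* encodes matrilysin, the protease that activates mouse alpha-defensin precursors (chr9:7692091-7699587, plus strand). It was at 38.1 and 32.0 CPM (EtOH) and 83.9 and 38.7 CPM (4-OHT) at day 6, and at 6.00 and 35.2 CPM at day 4. At day 6 the 4-OHT libraries did not overlap the EtOH libraries, but the gap was narrow, 38.7 against 38.1 CPM. *Itln1* encodes intelectin 1, a lectin that binds microbial sugars (chr1:171345690-171368943, minus strand). Its levels were 604 and 480 CPM (EtOH) and 1100 and 430 CPM (4-OHT) at day 6, and 74.8 and 287 CPM at day 4. The second 4-OHT library was the lowest of the 4 at day 6. Some 10.1% of the exon bases of *Mmp7* overlap *AV064505*, and none of those of *Itln1* overlap another gene.

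*Mptx2* encodes a mucosal pentraxin, a secreted protein made by Paneth cells (chr1:173101949-173105344, minus strand). It was the least abundant of the 10, with 39 and 2 counts (EtOH) and 428 and 39 counts (4-OHT) at day 6, and with 0 counts (EtOH) and 11 counts (4-OHT) at day 4. Scaled to CPM, the day 6 labels did not overlap, at 2.06 and 0.116 (EtOH) against 19.9 and 2.09 (4-OHT), but 1 EtOH and 1 4-OHT library were nearly level. With *Mmp7* and *Ang4*, 3 of the 10 genes had both 4-OHT libraries above both EtOH libraries at day 6, against 20.5% of all genes.

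The 4 defensins overlapped between the labels at day 6. *Defa24* (chr8:22224506-22225490, plus strand), the most abundant of them, was at 912 and 667 CPM (EtOH) and 1220 and 529 CPM (4-OHT), and at 143 and 561 CPM at day 4. *Defa17* (chr8:22145772-22146753, plus strand) was at 295 and 226 CPM (EtOH) and 400 and 182 CPM (4-OHT), and at 52.9 and 182 CPM at day 4. In both genes the 4-OHT libraries were the highest and the lowest of the 4 at day 6. *Defa30* (chr8:21609255-21625621, plus strand) was at 161 and 81.7 CPM (EtOH) and 327 and 79.1 CPM (4-OHT), and at 12.4 and 68.8 CPM at day 4. *Defa22* (chr8:21652290-21653265, plus strand) was at 30.1 and 16.1 CPM (EtOH) and 42.0 and 9.74 CPM (4-OHT), and at 2.41 and 4.96 CPM at day 4. These 4, with *Itln1* and *Pla2g2a*, made up the 6 of 10 genes in which the second 4-OHT library was below both EtOH libraries at day 6.

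The first comparison asked which genes differed between the labels 6 days after treatment. None of the 10 Paneth cell genes passed the threshold of an adjusted p under 0.05 in edgeR's quasi-likelihood test, where 2.51% of the 14066 genes tested did (2.27% in the higher direction), and 0 of 10 passed in DESeq2 and limma-voom too. An unadjusted p under 0.05 was reached by 4 of them, against 10.3% of all genes. All 10 estimates were above 0, from 0.14 to 3.30 on the log2 scale, with a median of 0.68 where the median of all genes was -0.01. *Mptx2* had the highest estimate, 3.30 (SE 1.00, edgeR quasi-likelihood, Benjamini-Hochberg adjusted p = 0.168). *Ang4* came closest to the threshold at 1.72 (SE 0.43, edgeR adjusted p = 0.0785), and *Mmp7* was at 0.80 (SE 0.31, edgeR adjusted p = 0.344). *Defa17*, *Defa22* and *Defa24* were at 0.14 to 0.16, less than their standard errors of 0.30 to 0.52.

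The day 6 estimates depended on single libraries, most of all on the first one labelled 4-OHT. Without it, the median over the 10 genes was -0.42, and 6 of the 10 estimates were below 0. *Itln1* was then at -0.33, *Pla2g2a* at -0.50, *Defa17* at -0.52, *Defa24* at -0.58, *Defa30* at -0.62 and *Defa22* at -1.25. *Ang4* remained at 0.66 and *Mptx2* at 0.89 on the log2 scale, neither past the threshold. Without the second 4-OHT library, 7 of the 10 genes passed, where 2.75% of 14893 genes did, with *Ang4* at 2.32. The 3 that did not were *Defa17*, *Defa22* and *Defa24*. Without the second EtOH library the median was 0.33, with *Defa17* at -0.026, *Defa24* at -0.066 and *Defa22* at -0.22. Without the first EtOH library the median was 1.01, and 0 of the 10 passed in either of these 2 settings. With a library left out, the lone library of its label is assumed to vary like the other pair.

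**Figure D2:**
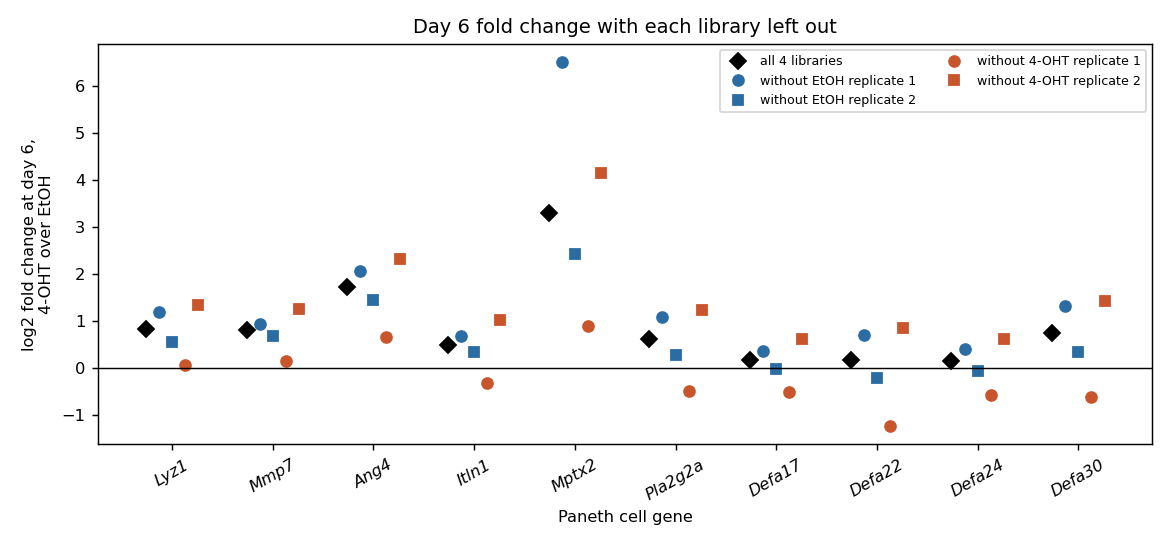
Day 6 log2 fold change of each Paneth cell gene, 4-OHT over EtOH, with all 4 libraries (black) and with each library left out in turn. Without the first 4-OHT library 6 of the 10 genes are below 0, without the second EtOH library 3 are, and with either of the other libraries left out all 10 are above 0.

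The comparison over both days set the 3 libraries labelled 4-OHT against the 3 EtOH libraries with day as a term. *Ang4* was the 1 of the 10 genes past the threshold, where 4.39% of 14060 genes passed (3.67% in the higher direction). Its log2 fold change was 2.11 (SE 0.41, edgeR quasi-likelihood test with Benjamini-Hochberg adjusted p = 0.0181). The call was lost without the first day 6 4-OHT library (1.65, adjusted p = 0.111), without the day 4 4-OHT library (2.19, 0.164) and without the day 4 EtOH library (1.40, 0.33), all by edgeR. The fits without a day 4 library also had no day term, so a call lost there cannot be put down to the library alone. Without a day term *Ang4* was at 1.88 (edgeR adjusted p = 0.245), while it kept its call in DESeq2 (adjusted p = 0.0188) and limma-voom (adjusted p = 0.0478).

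The other 9 estimates were also above 0, and the median of the 10 was 1.18. *Mptx2* was at 3.37 (SE 0.93, edgeR adjusted p = 0.0758), *Mmp7* at 1.30 (SE 0.36, edgeR adjusted p = 0.0861) and *Lyz1* at 1.28 (SE 0.36, edgeR adjusted p = 0.094). The defensins ranged from 0.34 for *Defa22* to 1.25 for *Defa30*, with adjusted p-values of 0.26 to 0.792 by edgeR. Leaving out 1 library moved the median of the 10 from 0.43, without the day 4 EtOH library and with *Defa17*, *Defa22* and *Defa24* below 0, to 1.69. Without the first day 6 4-OHT library the median was 0.69, with *Defa22* below 0. None of the 10 passed with either of these libraries left out, with the day 4 4-OHT library left out, or without a day term. Here too, the fits without a day 4 library had no day term. Without the second day 6 4-OHT library 7 of the 10 passed, where 2.70% of 14606 genes did. With no filter on low counts, *Lyz1*, *Mmp7*, *Ang4* and *Mptx2* passed, where 2.07% of 31709 genes did.

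**Figure D3:**
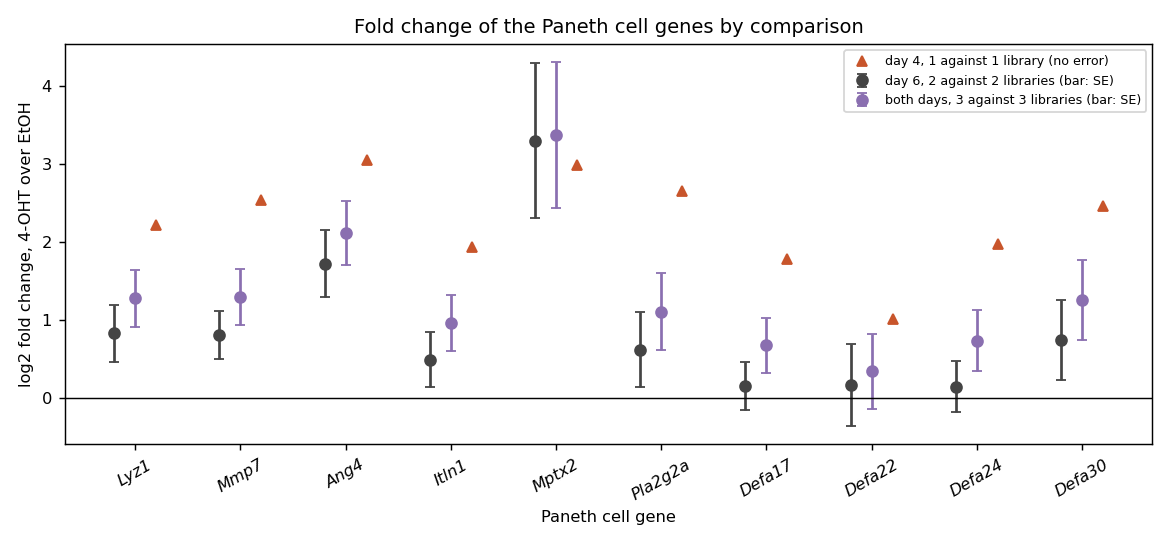
Log2 fold change of each Paneth cell gene, 4-OHT over EtOH, at day 6 (2 against 2 libraries), over both days (3 against 3) and at day 4 (1 against 1), with bars for the standard error where there are replicates. Day 4 points are above the day 6 points for every gene but *Mptx2*, whose day 4 EtOH count is 0 and whose day 4 value depends on the prior count.

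At day 4 there was 1 library per label, so the difference between the labels has no replicate check. All 10 genes were at least 2-fold higher in the library labelled 4-OHT, as were 4.74% of the 12707 genes that reached 1 CPM. *Ang4* had 173 counts with EtOH and 1089 with the 4-OHT label, a ratio of 8.33 after scaling (exact 95% interval 7.09 to 9.84, for counting error only). The ratios of *Pla2g2a* (6.66, 4.48 to 10.2), *Mmp7* (5.87, 4.80 to 7.24) and *Defa30* (5.54, 4.81 to 6.40) had overlapping intervals. *Lyz1* was at 4.64 (4.42 to 4.87), *Defa24* at 3.92 (3.75 to 4.09), *Itln1* at 3.84 (3.62 to 4.08) and *Defa17* at 3.43 (3.20 to 3.69). *Defa22* had the lowest ratio, 2.06 (1.41 to 3.03). *Mptx2* had 11 counts against 0, at least 4.85-fold higher against a floor of 3 counts per library, but its exact 95% counting interval starts lower, at 3.32-fold.

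The low side of this pair was the EtOH library. The mean of the 2 EtOH libraries at day 6 was above the day 4 EtOH library by 2.29 (*Defa17*) to 3.20 (*Defa30*) on the log2 scale. In the libraries labelled 4-OHT, the day 6 mean was above day 4 by 0.31 (*Pla2g2a*) to 2.95 (*Mptx2*). The day 4 4-OHT library was within the range of the day 6 EtOH libraries for *Mmp7*, *Mptx2* and *Pla2g2a*, above it for *Ang4* and below it for *Lyz1*, *Itln1* and the 4 defensins.

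The difference between the days was tested as the day 4 change minus the day 6 change, with the spread taken from the day 6 pairs. The larger day 4 shift was known when the 10 genes were proposed, so this test is not independent evidence of it. None of the 10 genes passed in edgeR, nor did any of the 16031 genes tested (0%). An unadjusted p under 0.05 was reached by 6 of the 10 and by 1.85% of all genes, and DESeq2 called 6 genes, 0 of them among the 10. The estimates of the 10 genes ran from 0.89 to 3.50, with a median of 1.69. The 12 enteroendocrine markers described below had similar values in this edgeR test. Of these, 7 had an unadjusted p under 0.05 and 11 had an estimate above 0, with a median of 1.64. Without the first day 6 library labelled 4-OHT, in which all 10 genes were highest, their estimates ran from 2.16 to 5.84. Without the second one they ran from 0.20 to 2.66. In both of these fits only the day 6 EtOH group held more than 1 library.

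The sum over all Defa genes behaved like its largest members. It was at 1740 and 1180 CPM (EtOH) and 2710 and 991 CPM (4-OHT) at day 6, and at 240 (EtOH) and 975 CPM (4-OHT) at day 4. The day 6 log2 fold change of the sum was 0.34 (SE 0.39, edgeR adjusted p = 0.877), and that over both days was 0.89 (edgeR adjusted p = 0.332). The day 4 ratio was 4.07 (exact 95% counting interval 3.94 to 4.21). Of the sum over all libraries, *Defa24* took 51.0%, *Defa17* 16.9%, *Defa30* 9.55% and *Defa22* 1.38%. Of the 45 Defa genes, 23 had at least 10 counts. At day 6, 0 of the 21 Defa genes tested passed in edgeR (2.51% of all genes did), and 15 estimates were above 0. An unadjusted p under 0.05 was reached by 3 of the 21, near the 10.3% of all genes. Reads that mapped to several places, which these counts leave out, were 4.65% to 5.77% of all entries of a library.

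Set against the defensins in the same library, 3 of the other Paneth cell genes had no overlap between the labels. This ratio was chosen after the values had been seen. With EtOH, *Ang4* had 0.0385 and 0.0375 counts per defensin count at day 6 and 0.0371 at day 4. With the 4-OHT label it had 0.103 and 0.0883 at day 6 and 0.0759 at day 4. The 3 EtOH values lay close together, although the *Ang4* level itself ranged from 8.88 to 66.9 CPM in them. *Lyz1* had 0.506, 0.476 and 0.460 counts per defensin count with EtOH, and 0.673, 0.752 and 0.524 with the 4-OHT label. *Mmp7* had 0.0219, 0.0272 and 0.0251 with EtOH, and 0.0310, 0.0391 and 0.0362 with the 4-OHT label. In these 3 genes all 4-OHT libraries were above all EtOH libraries. Of all genes, 0.469% had this order for the same ratio and 2.01% the opposite one. The Defa sum itself ranged from 240 to 2710 CPM and overlapped between the labels. A gene with the same level in every library must then have an overlapping ratio too. Those shares are therefore no baseline for genes that vary with the defensins, and the order in these 3 genes is a description only. *Itln1*, *Pla2g2a* and *Mptx2* overlapped between the labels.

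**Figure D4:**
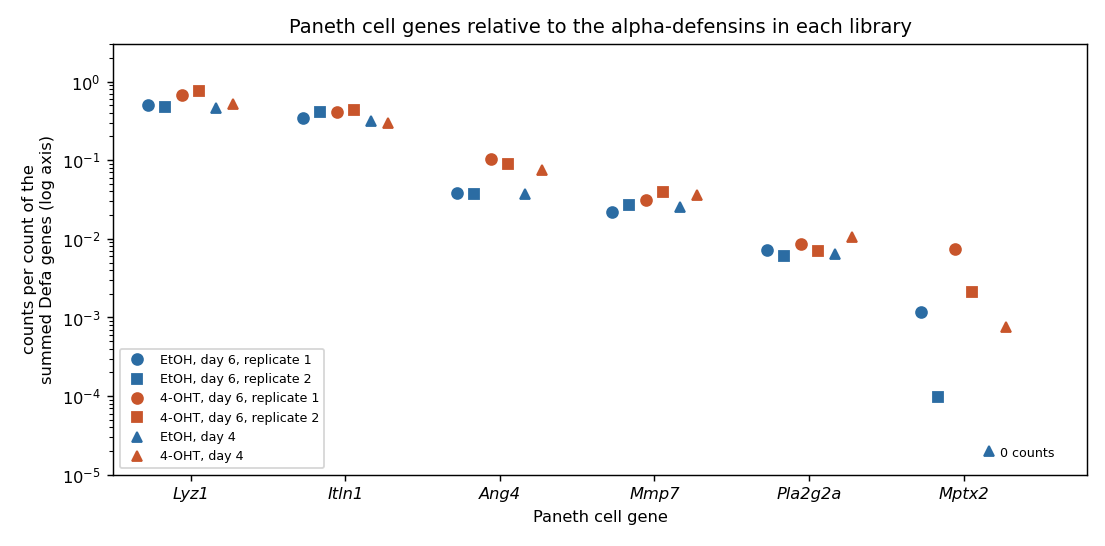
Counts of 6 Paneth cell genes per count of the summed Defa genes (log axis) in each library. For *Ang4* the 3 EtOH libraries lie between 0.0371 and 0.0385 and the 3 libraries labelled 4-OHT between 0.0759 and 0.103, and *Lyz1* and *Mmp7* are also without overlap.

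Other genes of Paneth cells were read from lists chosen with results of these data known. Among 9 further secreted products, 7 were tested at day 6, with 5 estimates above 0 and 2 below. The 2 below were *Clps* (-0.84, SE 0.35, edgeR adjusted p = 0.415) and *Habp2* (-0.73, SE 0.39, edgeR adjusted p = 0.608). An unadjusted p under 0.05 was reached by 5 of the 7, and 1 passed, in the higher direction. *Reg3a*, an antibacterial lectin gene, was at 4.39 and 2.03 CPM (EtOH) and 13 and 8.62 CPM (4-OHT) at day 6, and at 0.103 and 0.815 CPM at day 4. Its day 6 log2 fold change was 1.74 (SE 0.39, edgeR adjusted p = 0.0493). This call was lost with limma-voom (adjusted p = 0.0618), and in edgeR with median-of-ratios scaling (0.0502), with no filter (0.0576), without either EtOH library (0.101 and 0.153) and without the first 4-OHT library (0.0664). Over both days 2 of the 7 passed, *Reg3a* (1.80, SE 0.36, edgeR adjusted p = 0.0206) and the lipase gene *Pnliprp2* (1.24, SE 0.24, edgeR adjusted p = 0.0164). Both calls were lost without either day 4 library, in fits that also had no day term. That of *Reg3a* was also lost without the second EtOH or the first 4-OHT library of day 6. The edgeR adjusted p-values of these lost calls ran from 0.0755 to 0.599. With all libraries kept, taking out the day term alone ended both calls (edgeR adjusted p = 0.4 for *Reg3a* and 0.221 for *Pnliprp2*). *Reg3* genes and *Pnliprp2* are also made by other epithelial cells.

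Among 7 transcription factor genes of the Paneth lineage, 0 passed in either comparison by edgeR, and 1 had an unadjusted p under 0.05 in each. That gene was *Spdef*, lower with the 4-OHT label. It was at -0.77 (SE 0.27, edgeR adjusted p = 0.262) at day 6 and -0.59 (SE 0.22, edgeR adjusted p = 0.219) over both days. At day 6, 2 of the 7 estimates were above 0 and 5 below. *Atoh1*, which commits cells to the secretory lineage, was at 19.7 and 16.1 CPM (EtOH) and 17.1 and 13 CPM (4-OHT) at day 6, and at 7.85 and 7.47 CPM at day 4. *Sox9*, required for Paneth cells, was at 114 and 111 CPM (EtOH) and 109 and 77.3 CPM (4-OHT) at day 6, and at 97.9 and 132 CPM at day 4. *Bhlha15*, a factor gene of secretory cells, was at 25.6 and 18.7 CPM (EtOH) and 22 and 17.1 CPM (4-OHT) at day 6, and at 8.36 and 16.6 CPM at day 4. Of the 7 factors, 0 were highest in the first day 6 4-OHT library, near the 14.6% of all genes, and 1, *Bhlha15*, was lowest in the day 4 EtOH library.

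Of the 7 niche signal genes, 6 were tested at day 6, with 2 estimates above 0 and 4 below, and 1 passed. The lowest estimates were those of *Egf* (-0.53, SE 0.42, edgeR adjusted p = 0.782) and *Dll4* (-0.53, SE 0.26, edgeR adjusted p = 0.54). *Bst1*, an ectoenzyme gene that Paneth cells use to signal to stem cells, had a log2 fold change of 1.88 (SE 0.34, edgeR adjusted p = 0.0181) at day 6 and 1.74 (edgeR adjusted p = 0.00911) over both days. The first call was lost without the first EtOH library (1.55) and the second without the day 4 EtOH library (1.48, edgeR adjusted p = 0.4). The latter fit also had no day term, and with all libraries kept that change alone ended the call (edgeR adjusted p = 0.185). *Wnt3*, the Wnt ligand that Paneth cells supply, was at 11.5 and 8.87 CPM (EtOH) and 12 and 6.85 CPM (4-OHT) at day 6, and at 3.28 and 7.74 CPM at day 4. It had the same lowest and highest libraries as the Paneth cell products, and its day 6 estimate was -0.11 (SE 0.32, edgeR adjusted p = 0.967). The receptor and surface genes gave 0 of 5 in both comparisons, with 0 (day 6) and 1 (both days) at an unadjusted p under 0.05. All 5 of their estimates were below 0 at day 6, and 4 were over both days. The 1 gene over both days was *Kit*, at -0.48 (SE 0.20, edgeR adjusted p = 0.271). Of 9 granule and autophagy genes tested at day 6, 5 estimates were above 0 and 4 below, and 0 passed. An unadjusted p under 0.05 was reached by 2, *Irgm1* and *Slc30a2*. *Slc30a2* was lower with the 4-OHT label, at -0.83 (SE 0.35, edgeR adjusted p = 0.442) at day 6 and -0.80 (edgeR adjusted p = 0.149) over both days. It had 4.87 and 7.88 CPM (EtOH) and 3.16 and 4.01 CPM (4-OHT) at day 6, and 7.23 and 4.35 CPM at day 4. *Irgm1*, an interferon-induced GTPase gene, passed over both days (0.79, SE 0.14, edgeR adjusted p = 0.0109). *Irgm1* lost its call without the first day 6 4-OHT library (edgeR adjusted p = 0.0694) and without the day 4 EtOH library (0.115). The latter fit also had no day term, though with all libraries kept and no day term *Irgm1* passed (edgeR adjusted p = 0.03).

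Markers of other cell types moved with some of these values. The 12 enteroendocrine markers, genes of the hormone-secreting cells, summed to 507 and 422 CPM (EtOH) and 774 and 407 CPM (4-OHT) at day 6, and to 65.6 (EtOH) and 302 CPM (4-OHT) at day 4. The lowest and highest libraries of this sum were those of the Paneth cell genes. Of the 12 single genes, 11 were lowest in the day 4 EtOH library, but only 7 were highest in the first day 6 4-OHT library. Both held at once for 6 of the 12, against 10 of 10 Paneth cell genes and 5.18% of all genes. Of the 11 with a mean of at least 1 CPM over the 6 libraries, 10 were 2-fold or more higher with the 4-OHT label at day 4. At day 6, 0 of 12 passed in edgeR, and 1 had an unadjusted p under 0.05. *Chgb*, a granule protein gene of endocrine cells, was at 255 and 213 CPM (EtOH) and 423 and 215 CPM (4-OHT) at day 6, and at 35.0 and 161 CPM at day 4.

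The sum of the enterocyte markers had the same lowest and highest libraries. Their 13 genes summed to 1750 and 1910 CPM (EtOH) and 5120 and 4080 CPM (4-OHT) at day 6, and to 1390 and 1890 CPM at day 4, and 10 of 13 passed in the higher direction at day 6. In this list the second day 6 4-OHT library was high as well. The same lowest and highest libraries held at once for 8 of the 13 single genes. The 12 stem cell markers summed to 5060 and 3970 CPM (EtOH) and 2770 and 2260 CPM (4-OHT) at day 6, and to 3270 and 2400 CPM at day 4. Much of this sum was *Olfm4*, which alone was at 3300 and 2240 CPM (EtOH) and 1320 and 984 CPM (4-OHT) at day 6. Of the 12 estimates at day 6, 8 were below 0 and 4 above, and 2, *Olfm4* and *Slc14a1*, passed in the lower direction. The sum of the 10 goblet markers ranged from 2060 to 3510 CPM, lowest in the day 4 EtOH library, and *Fcgbp* alone was at 1320 to 2430 CPM. Of these 10, 2 passed in the higher direction at day 6, *Zg16* (2.75, SE 0.27, edgeR adjusted p = 0.000664) and *Clca1* (1.24, SE 0.23, edgeR adjusted p = 0.021). The sum of the 10 tuft markers ranged from 8.63 to 42.2 CPM, with *Il25* at 0 counts in every library. All 6 tuft markers tested at day 6 had estimates below 0, and 1 passed, *Dclk1* (-2.24, SE 0.48, edgeR adjusted p = 0.0388). Markers of blood, vessel and connective tissue cells, 11 genes, summed to 0.811 to 2.77 CPM. The part of these other cell types in the Paneth cell values was not tested.

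**Figure D5:**
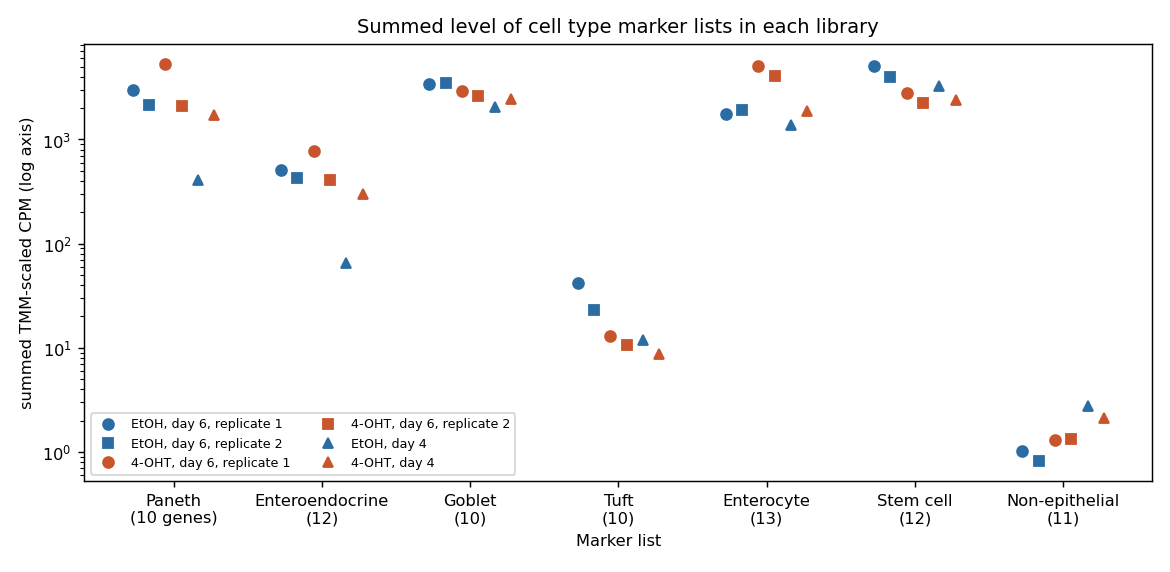
Summed TMM-scaled CPM (log axis) of each cell type marker list in each library. The Paneth, enteroendocrine and enterocyte sums are lowest in the day 4 EtOH library (412, 65.6 and 1390 CPM). They are highest in the first day 6 4-OHT library (5320, 774 and 5120 CPM), and the enterocyte sum is high in both day 6 4-OHT libraries.

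The genes most like the Paneth cell genes were ranked by the Pearson correlation of their log2 level with the mean standardised level of the 10, over the 6 libraries. Of 12678 genes outside the 10 and the Defa family, *Tcta* (0.996), *St3gal1* (0.99), *Pnma8b* (0.99), *Rfx6* (0.989) and *Trappc12* (0.989) came first. *Amigo2*, *Naa20*, *Pappa2*, *Chgb* and *Chga* followed at 0.984 to 0.986. *Tcta* and *Trappc12* spanned small ranges, 9.18 to 15.1 CPM and 40.0 to 51.1 CPM. *Chga*, which encodes chromogranin A of endocrine cells, spanned 9.54 to 138 CPM. *Wnt3* was at rank 45 with a correlation of 0.956. These 6 points share library, day and treatment, so the ranks describe a pattern and no more.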

How the data were processed

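RNA sequencing of 6 mouse libraries was used, grouped by the treatment and day in their labels. The authors deposited raw read counts as whole numbers for each of 56884 genes. STAR and build mm39 are named in the submitters' processing notes. Versions, the annotation used and strandedness are not given in the sources used here. Without strand, reads of overlapping antisense genes cannot be told apart. Reads mapping to several places or overlapping several genes are in separate lines of the files, with unmapped and unassigned reads, 19.3% to 26.7% of all entries, which were left out.

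Symbols and coordinates came from GENCODE M39 on GRCm39 (56323 identifiers matched, 99.96% of the gene counts), and promoters from the RefSeq table of GRCm38.p6. The 10 genes, the lists and the tests were chosen with earlier results of these data known. Counts were tested with glmQLFit and glmQLFTest of edgeR 4.0.16 in R 4.3.3, with TMM scaling, filterByExpr (minimum count 10) and Benjamini-Hochberg adjustment over all genes tested. Gene totals were 14345379 to 21461835. Day 4 changes were computed with a prior count of 2, without a test. Intervals are exact at 95% and cover counting error only, since no molecular identifiers are mentioned. The code was tested on simulated counts. There, 34% of 2-fold changes passed at day 6, 63% over both days and 3% for the difference between the days. Unchanged genes made up 6.09%, 8.82% and 12.7% of the calls. A gene that did not pass may therefore still differ. Named genes were the 10, *Ythdf2*, *Lgr5*, Defa genes of at least 10 counts, genes of the Paneth lists, other-list genes past the threshold, and the 10 most like genes; *Chgb* and *Chga* come from the last, and *Lyz2* and *Il25* from the lists. The alternatives were other scalings, filters and tools (DESeq2 1.42.0, limma-voom with limma 3.58.1), a replicate block, no day term, a prior count of 0.5, and each library left out. Replicates were compared by chi-square before averaging and differed (33.2 and 22.9 per degree of freedom).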

Additional observations from a re-analysis of the deposited data

How the results depend on the processing

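Median-of-ratios scaling, the filter at 1 CPM in 2 libraries, DESeq2 and the fit of all 6 libraries in 4 groups turned no direction and ended no call among the 10 genes. At day 6, *Defa22* turned to -0.10 with limma-voom. Leaving out 1 library gave 99 to 409 genes at day 6 (353 with all), 175 to 699 over both days (617) and 0 to 26 for the difference between the days (0), where DESeq2 gave 6. Without a day term 361 genes passed over both days, and *Reg3a*, *Pnliprp2* and *Bst1* lost their calls. The fits over both days that left out a day 4 library also had no day term. With 1 library left out, the median of the 10 genes at day 6 ranged from -0.42 to 1.24. The Defa sum ranged from -0.56 to 0.88 at day 6, from 0.092 to 1.39 over both days and from 1.15 to 2.57 for the difference. Single genes that changed sign at day 6 ranged from -0.33 to 1.01 (*Itln1*), -0.50 to 1.23 (*Pla2g2a*), -0.52 to 0.61 (*Defa17*), -1.25 to 0.85 (*Defa22*), -0.58 to 0.62 (*Defa24*) and -0.62 to 1.42 (*Defa30*). Over both days the ranges were -0.035 to 1.12 (*Defa17*), -0.50 to 0.90 (*Defa22*) and -0.037 to 1.22 (*Defa24*). The summed share of the 10 genes at day 4, a log2 ratio of 2.10, was 2.22 without the 4 defensins, 2.05 without *Lyz1*, 2.14 without *Defa17* and 2.15 without *Defa24*. The same settings were tried for *Ythdf2*, *Reg3a*, *Pnliprp2*, *Bst1* and *Irgm1* at day 6 and over both days, a choice made after seeing the data. None of these changed sign, and *Ythdf2* kept its call in every one. The cause of these changes was not tested.

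The labels do not say that replicate numbers pair libraries. Across 14066 genes, the replicate differences of the labels correlated at 0.266, with only 2 pairs. With a replicate block 839 genes (5.96%) passed at day 6 and *Defa22* was at -0.079, and 4 of the 10 genes passed (*Lyz1*, *Mmp7*, *Ang4* and *Mptx2*). Over both days the block gave 3 of 10, where 6.21% of 14060 genes passed. *Mptx2*, with 0 to 428 counts, is limited by depth.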

Other observations

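The make-up of the alpha-defensins themselves was compared between libraries. *Defa39* was picked out of the 23 Defa genes with at least 10 counts after the values had been seen, because its share of the summed Defa counts did not overlap between the labels. Its values are therefore a description, and the difference was not tested. *Defa39* made up 3.96% and 2.52% of the sum with EtOH at day 6 and 2.03% at day 4, against 6.59% and 6.60% with the 4-OHT label at day 6 and 6.12% at day 4. Its own level was 68.9 and 29.7 CPM (EtOH) and 178 and 65.4 CPM (4-OHT) at day 6, where the labels overlapped. *Defa24*, the largest part, made up 52.5% and 56.6% (EtOH) and 45.1% and 53.4% (4-OHT) at day 6, and 59.8% and 57.5% at day 4. Of the windows of 100 bases in *Defa39*, 4.14% also occurred in another gene.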
